A study of Mus musculus with 6 samples.

Results

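The 8 genes described here encode small GTPases of the RAS family and comprise *Nras*, *Hras*, *Mras*, *Rit1*, *Rras*, *Rras2*, *Rap1a*, and *Rap1b*. They were chosen by name as relatives of the RAS proteins whose stability LZTR1 controls. Their expression values were not used for the choice, although earlier results of these data were known. All 8 were among the 56923 genes listed in the count data and among the 17212 genes tested. The mRNA-Seq measured left ventricles (LVs) of 12-week-old mice, 3 WT and 3 *Lztr1* R409C/+, and each mouse gave 1 library. The mutant mice were heterozygous for a germline missense allele made by CRISPR/Cas9 and were kept on a C57BL/6J background. All animals were males, and the heart was perfused with PBS before the LV was taken. The comparison addresses whether an *Lztr1* mutation, which acts on RAS proteins, is accompanied by a difference in the RNA of the genes that encode them. Protein was not measured in these libraries.

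RAS-family GTPases switch between a GDP-bound and a GTP-bound form and, when bound to GTP, pass signals from receptors to kinases such as RAF. LZTR1 is a BTB-Kelch protein that brings RAS-family proteins, RIT1 and MRAS among them, to the CUL3 ubiquitin ligase, and ubiquitinated GTPases are then degraded. Excess signaling along this route underlies Noonan syndrome, in which the heart muscle can thicken.

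Most RAS-family proteins are anchored in membranes by a lipid that is attached to a cysteine 4 codons before the stop codon, and the last 30 coding bases, stop codon included, show which of the 8 genes carry this codon. The sequences are those of the canonical GENCODE M39 transcripts on GRCm39, read 5′ to 3′ on the coding strand, and capitals mark the cysteine codon.
Nras: tgtatggggctgcccTGTgtgctgatgtag
Hras: tgcatgagctgcaaaTGTgtgctgtcctga
Mras: actcacaaactgcagTGTgtcatcttgtga
Rit1: ttcaggaggaagaaagactcggtcacctga
Rras: gatggaggatgtcccTGTgtcctgctgtag
Rras2: aagaaaggctgccatTGTgtcattttctaa
Rap1a: cctaaaaagaaatcaTGTttgctgctctag
Rap1b: cgcaaaaagtcatcgTGTcagctgctttaa
In 7 of the 8 genes the codon was TGT, and in *Rit1* it was GAC, with no cysteine codon among the last 9. *Rit1*, whose protein is held at the membrane without this lipid, and *Mras* thus differ at the site where prenyltransferases act, although LZTR1 binds both proteins. The windows lie at chr3:102970736-102970765 (*Nras*, plus strand), chr7:140771261-140771290 (*Hras*, minus strand), chr9:99270458-99270487 (*Mras*, minus strand), chr3:88636620-88636649 (*Rit1*, plus strand), chr7:44670759-44670788 (*Rras*, plus strand), chr7:113647399-113647428 (*Rras2*, minus strand), chr3:105639301-105639330 (*Rap1a*, minus strand), and chr10:117653279-117653308 (*Rap1b*, minus strand). Each window lay within a single exon.

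Total counts ranged from 66130887 to 72641124 per mouse, and values are given as CPM, each count scaled to a common library total after TMM normalization, in which 3 counts corresponded to 0.0317 to 0.0541 CPM. Mitochondrially encoded genes took 13.8% of counts in WT replicate 3, 45.4% in *Lztr1* R409C/+ replicate 1, and 29.7% to 37.3% in the other 4 mice. All 6 markers of ventricular cardiomyocytes were detected, and of the 4 atrial markers, *Myl7* and *Sln* had group means from 0 to 0.112 CPM, *Myl4* had 0.471 and 0.491 CPM, and *Nppa*, which hypertrophic ventricles also express, had 54.5 and 78.6 CPM in WT and mutant mice, respectively. In these bulk samples, fewer cells of a type and less RNA per cell cannot be told apart.

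None of the 8 transcripts passed the threshold for a difference between the genotypes. In the quasi-likelihood test of edgeR, with p adjusted by Benjamini-Hochberg over all genes tested, 0 of the 8 had an adjusted p under 0.05, compared with 0.0407% of all genes tested (0.0349% higher and 0.00581% lower in mutant mice). At an unadjusted p under 0.05, 1 of the 8 was higher (*Rras*) and 1 was lower (*Rras2*) in *Lztr1* R409C/+ mice, compared with 8.63% of all genes, 5.77% being higher and 2.86% lower. The CPM of these 2 genes did not overlap between the genotypes, whereas the other 6 overlapped. Of all genes tested, 15.5% did not overlap, with 8.3% higher and 7.23% lower in every mutant mouse, and 2 in 8 is too few genes to set apart from these shares. The median log2 fold change of the 8 was 0.08, beside 0.01 over all genes tested.

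**Figure D1:**
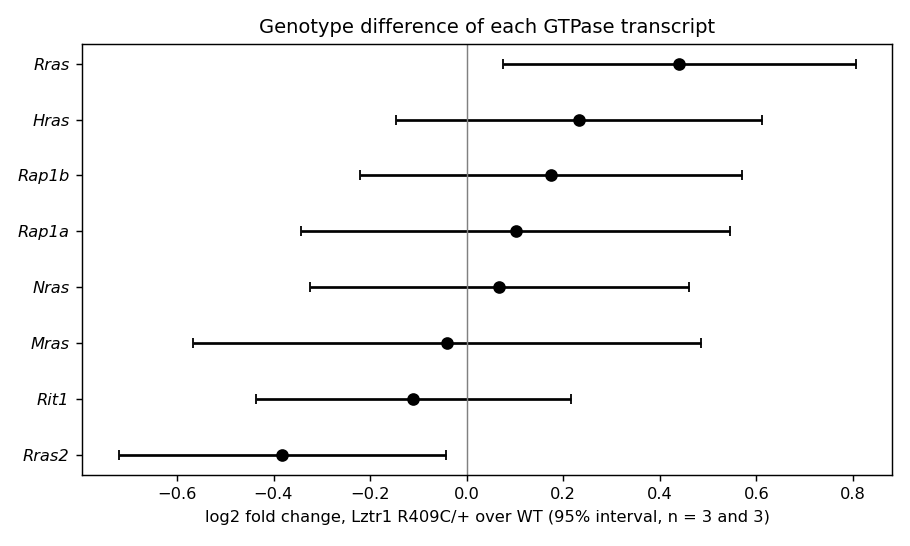
Log2 fold change of *Lztr1* R409C/+ over WT mice for each GTPase gene (x axis, log2 units), with points for the estimate and bars for the 95% interval of edgeR's quasi-likelihood fit to 3 mice of each genotype. The intervals of *Rras* (0.07 to 0.81) and *Rras2* (-0.72 to -0.04) lie to either side of 0, and the other 6 include 0.

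*Mras* and *Rit1*, which encode GTPases that LZTR1 binds, were at similar RNA levels in both genotypes. *Mras* encodes the GTPase that joins SHOC2 and the phosphatase PP1C to remove an inhibitory phosphate from RAF. In replicate order, WT mice had 4.24, 4.21, and 3.09 CPM of *Mras*, while *Lztr1* R409C/+ mice had 3.16, 4.07, and 3.97 CPM. The lowest mouse of each genotype stood about as low as that of the other, and the groups overlapped. Means were 3.85 ± 0.653 CPM in WT and 3.73 ± 0.501 CPM in *Lztr1* R409C/+ mice (SD, n = 3 each). The log2 fold change of *Mras* was -0.04 (95% interval, -0.57 to 0.49; adjusted p = 0.976, edgeR's quasi-likelihood test). As a ratio, this interval ran from 0.675 to 1.40 and so included both lower and higher *Mras* RNA in mutant mice. The size of change that 3 mice of each genotype could detect was not tested. *Mras* was the member with the fewest counts, from 175 to 293 per mouse, and with the widest interval. Its biological coefficient of variation, a fitted value that draws on other genes as well, was 22.5%.

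*Rit1* encodes a GTPase that is mutated in some patients with Noonan syndrome. Its level was 32.9, 28.1, and 30.1 CPM in WT, against 30.4, 26.9, and 27.1 CPM in the mutant group. The values of all 6 mice lay close together, and *Lztr1* R409C/+ replicate 1 was above 2 of the 3 WT mice. Means were 30.4 ± 2.42 CPM in WT and 28.1 ± 1.96 CPM in mutant mice (SD, n = 3 each), and the log2 fold change was -0.11 (95% interval, -0.44 to 0.22; adjusted p = 0.878, edgeR's quasi-likelihood test). In fold terms, the interval for *Rit1* ran from 0.739 to 1.16. *Rit1* had the lowest fitted biological coefficient of variation of the 8 genes, 14.8%, and the narrowest interval.

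**Figure D2:**
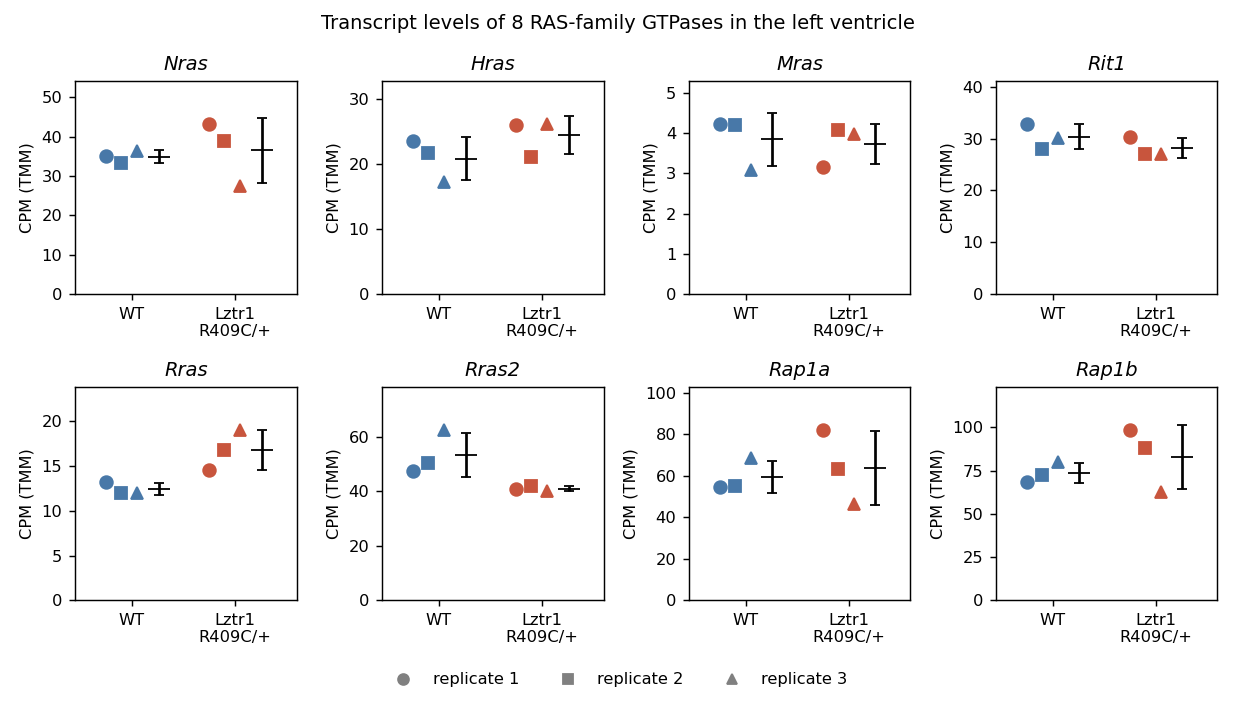
CPM after TMM scaling (y axis, linear from 0) of each GTPase gene in WT (blue) and *Lztr1* R409C/+ (red) mice, where each point is a mouse, its shape gives the replicate number, and the black bar beside it is the mean with the SD. The groups are apart for *Rras* and *Rras2*, and *Nras*, *Rap1a*, and *Rap1b* spread more among the mutant than among the WT mice.

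*Nras* and *Hras* encode classical RAS proteins that activate RAF and PI3K. *Nras* was at 35.1, 33.2, and 36.4 CPM in WT and 43.3, 39.04, and 27.4 CPM in the mutant mice. The mutant mice held both the highest and the lowest *Nras* value of all 6. The SD was 1.60 CPM around a mean of 34.9 in WT and 8.23 CPM around a mean of 36.6 in mutant mice (n = 3 each), and the log2 fold change of *Nras* was 0.07 (95% interval, -0.32 to 0.46; adjusted p = 0.946, edgeR's quasi-likelihood test). *Hras* was at 23.6, 21.7, and 17.2 CPM in WT and 26.0, 21.1, and 26.2 CPM in the mutant mice. *Lztr1* R409C/+ replicate 2 was below WT replicates 1 and 2, so the groups overlapped. Means of *Hras* were 20.8 ± 3.26 CPM in WT and 24.4 ± 2.91 CPM in mutant mice (SD, n = 3 each), with a log2 fold change of 0.23 (95% interval, -0.15 to 0.61; adjusted p = 0.754, edgeR's quasi-likelihood test).

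*Rras* and *Rras2*, which encode R-RAS and R-RAS2, differed between the genotypes in opposite directions at the unadjusted level only. R-RAS is known for its effects on integrins and on the vessel wall, and R-RAS2, also named TC21, activates PI3K. *Rras* was at 13.2, 12.0, and 12.0 CPM in WT and 14.5, 16.8, and 19.1 CPM in the mutant mice, and every mutant mouse was above every WT mouse. Its mean was 12.4 ± 0.676 CPM in WT and 16.8 ± 2.26 CPM in mutant mice (SD, n = 3 each). The log2 fold change of *Rras* was 0.44 (SE 0.17; 95% interval, 0.07 to 0.81; unadjusted p = 0.0222, adjusted p = 0.504, edgeR's quasi-likelihood test). *Rras2* was at 47.4, 50.3, and 62.6 CPM in WT and 40.9, 41.9, and 40.2 CPM in the mutant mice. Every mutant mouse was below every WT mouse, and the mutant values were the more uniform. The mean of *Rras2* was 53.4 ± 8.08 CPM in WT and 41.0 ± 0.858 CPM in mutant mice (SD, n = 3 each). Its log2 fold change was -0.38 (SE 0.16; 95% interval, -0.72 to -0.04; unadjusted p = 0.0302, adjusted p = 0.532, edgeR's quasi-likelihood test). WT replicate 3, the mouse with the lowest share of mitochondrial counts, had the highest *Rras2* value, and without it the log2 fold change was -0.25 (unadjusted p = 0.111, edgeR's quasi-likelihood test). A two-sided exact permutation test of the CPM of 3 mice against 3 gave p = 0.1 for *Rras* and for *Rras2*, the smallest that this design allows.

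*Rap1a* and *Rap1b* encode the RAP1 proteins, which regulate cell adhesion and cell junctions downstream of cyclic AMP. Both were among the more abundant members and had the largest SD in CPM among the mutant mice. Relative to the mean, the SD in mutant mice was 28.2% for *Rap1a*, 22.3% for *Rap1b*, and 22.5% for *Nras*. *Rap1a* was at 54.7, 55.3, and 68.5 CPM in WT and 82.2, 63.1, and 46.2 CPM in the mutant mice. *Rap1b* was at 68.6, 72.4, and 79.7 CPM in WT and 98.5, 88.1, and 62.6 CPM in the mutant mice. For both genes, mutant replicate 1 was the highest and mutant replicate 3 the lowest of all 6 mice. Means of *Rap1a* were 59.5 ± 7.83 and 63.9 ± 18.0 CPM, and those of *Rap1b* were 73.6 ± 5.65 and 83.1 ± 18.5 CPM, in WT and *Lztr1* R409C/+ mice (SD, n = 3 each). The log2 fold changes were 0.10 for *Rap1a* (95% interval, -0.34 to 0.55; adjusted p = 0.925) and 0.17 for *Rap1b* (95% interval, -0.22 to 0.57; adjusted p = 0.831, edgeR's quasi-likelihood test).

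*Nras*, *Rap1a*, and *Rap1b* followed the same order among the mutant mice, with replicate 1 above replicate 2 above replicate 3, and in WT each was highest in replicate 3. The share of mitochondrial counts had that order among the mutant mice as well, at 45.4%, 35.0%, and 29.7%, but in WT it was lowest in replicate 3. The canonical transcripts of these 3 genes had the lowest GC content of the 8, at 42.9%, 39.8%, and 40.4%, compared with 46.2% to 57.7% in the others. *Rras* ran in the opposite order among the mutant mice, and its transcript had 53.2% GC. The part of base composition and of the mitochondrial share in these orders was not tested.

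Levels of different genes can be compared only per length, and CPM were therefore divided by the summed length of each gene's exons in kb. *Rras2* stood highest, at 12.4 CPM per kb (mean of 6 mice), followed by *Rap1a* at 8.59, *Rap1b* at 7.85, *Nras* at 4.90, *Rras* at 4.86, *Hras* at 4.47, *Rit1* at 3.36, and *Mras* at 0.503 CPM per kb. Among all genes tested, *Rras2* was at percentile 91.1 and *Mras* at percentile 30.4 on this scale. *Rit1* was 6.73-fold above *Mras*, and *Rap1b* was 1.60-fold above *Nras*, with separate ranges over the 6 mice. The other 5 neighboring pairs in this order had overlapping ranges. The order depends on which transcripts the LV uses. With the coding sequence or the canonical transcript as the length, *Rap1b* was highest in place of *Rras2*, whereas *Mras* was lowest with each of the 4 lengths used.

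As shares of the summed level of the 8 genes, *Rras2* took 27.7%, 29.6%, and 32.8% in WT, against 20.8%, 23.3%, and 25.1% in mutant mice. *Rras2* was the only member whose share did not overlap between the genotypes, and its mean share was 30.01% ± 2.60 in WT and 23.1% ± 2.17 in mutant mice (SD, n = 3 each), a difference of -6.95 percentage points. The groups were also apart for *Rras2* with each of the other 3 lengths, with differences of -5.93 (longest transcript), -5.58 (canonical transcript), and -4.27 percentage points (coding sequence). By the exon length, *Rras* made up 9.71%, 8.90%, and 7.97% in WT, against 9.32%, 11.8%, and 15.0% in mutant mice, and mutant replicate 1 lay within the WT range. *Rap1a* and *Rap1b* together made up 33.4% ± 1.39 in WT and 36.1% ± 5.55 in mutant mice, with overlap. By this length, *Mras* did not exceed 1.25% of the sum, and *Rit1* lay between 6.53% and 8.37%. With the other lengths, *Mras* reached up to 1.48% (longest transcript). *Rit1* then ranged from 4.77% (canonical transcript) to 10.4% (coding sequence). The sum itself was 46.8 ± 3.07 CPM per kb in WT and 47.2 ± 4.87 CPM per kb in mutant mice (SD, n = 3 each), so the total RNA of the 8 genes was similar in both genotypes. Shares add to a fixed total, and a lower share of *Rras2* therefore raises those of other members.

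**Figure D3:**
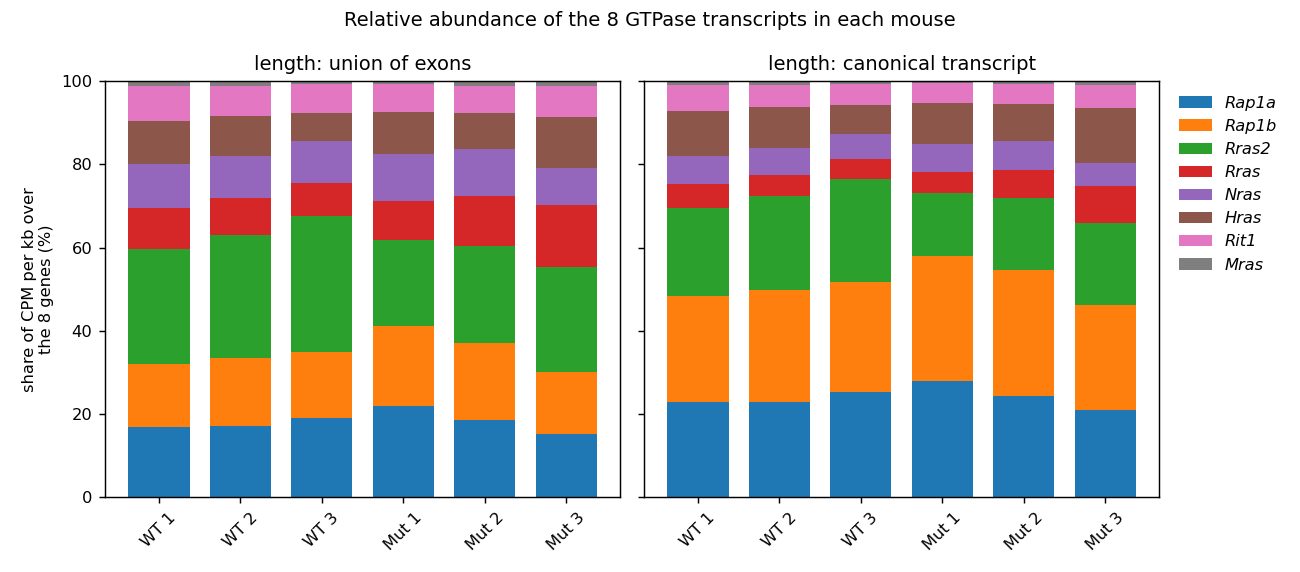
Share of each GTPase gene in the summed CPM per kb of the 8 genes (y axis, percent, 0 to 100) for each mouse, with Mut standing for *Lztr1* R409C/+, by the length of all exons (left) and of the canonical transcript (right). With the exon length, the *Rras2* band is 27.7% to 32.8% in WT and 20.8% to 25.1% in mutant mice, and *Mras* is a thin band at the top of every bar.

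The ratio of a pair of paralogs within a mouse does not depend on how libraries are scaled. Of the 4 pairs compared, only *Rras* over *Rras2* was apart between the genotypes. Per kb, this ratio was 0.351, 0.301, and 0.243 in WT, against 0.449, 0.507, and 0.599 in mutant mice, so *Rras2* RNA was the more abundant of the pair in every mouse, and less so in each mutant mouse. The mean log2 ratio was -1.76 ± 0.27 in WT and -0.96 ± 0.21 in mutant mice (SD, n = 3 each), a difference of 0.80 or a 1.74-fold higher ratio. A two-sided exact permutation test gave p = 0.1, the smallest possible with 3 mice against 3, and 0.4 after adjustment over the 4 pairs. This ratio rests on the same counts as the separate values of *Rras* and *Rras2* and adds no further evidence to them.

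For *Mras* over *Rit1*, the pair of LZTR1 targets, the ratio was 0.149, 0.173, and 0.118 in WT, against 0.120, 0.174, and 0.169 in mutant mice. The ranges coincided, and the difference in log2 ratio was 0.07 (two-sided exact permutation test, p = 0.7). *Rap1a* over *Rap1b* was the tightest pair, with ratios from 0.996 to 1.19 over all 6 mice and a difference in log2 ratio of -0.08 (two-sided exact permutation test, p = 0.4). *Nras* over *Hras* ranged from 1.03 to 1.47 in WT and from 0.726 to 1.29 in mutant mice, a difference of -0.19 on the log2 scale (two-sided exact permutation test, p = 0.6). Adjusted over the 4 pairs, p was 0.7 for each of these 3 pairs.

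**Figure D4:**
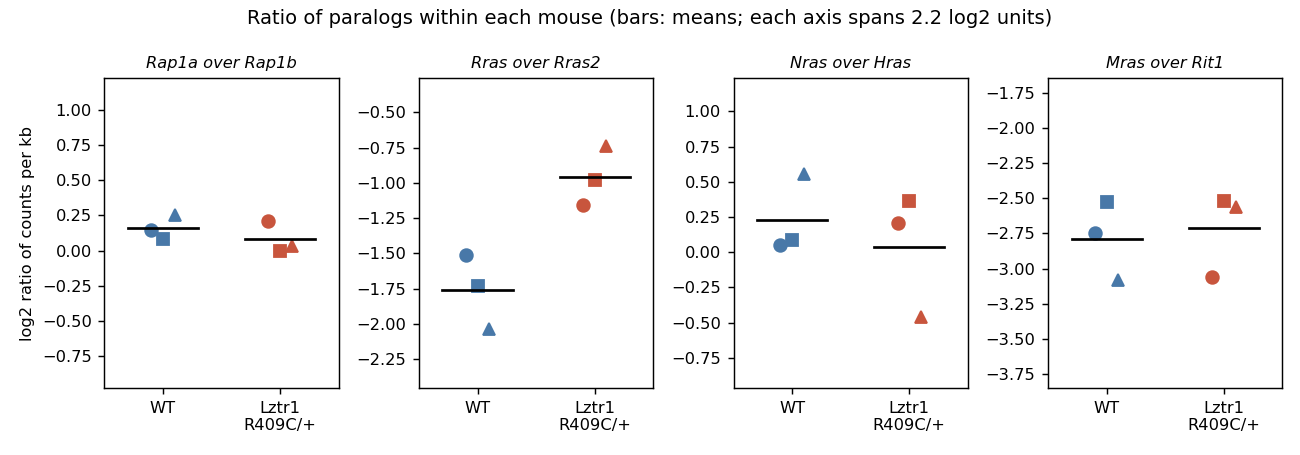
Log2 ratio of counts per kb of paralogs within each mouse (y axes, log2 units, equal span) for 4 pairs in WT (blue) and *Lztr1* R409C/+ (red) mice, where each point is a mouse, its shape gives the replicate number, and the bar is the mean. Only the *Rras* over *Rras2* panel has groups that do not overlap, with means of -1.76 and -0.96.

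The coding sequences of *Rap1a* and *Rap1b* were 81.6% identical, those of *Nras* and *Hras* 75.9%, those of *Rras* and *Rras2* 69.3%, and those of *Mras* and *Rit1* 61.4%. The longest run of bases shared by canonical transcripts of any pair among the 8 was 35 bases. Other loci came closer. Of the 50-base windows of the canonical *Rap1a* transcript, 9.25% also occurred in other genes, mostly the processed pseudogene *Gm9392*, which had 872 counts summed over the 6 mice. *Gm9392* had a log2 fold change of -0.07. Of the exonic bases of *Rras* (chr7:44665312-44671073, plus strand), 15.6% overlap exons of *Scaf1*, which encodes a splicing-related factor on the opposite strand. *Scaf1* was at 46.6, 41.5, and 48.9 CPM in WT and at 33.0, 44.1, and 58.5 CPM in mutant mice, with a log2 fold change of -0.01. The long noncoding RNA *Gm72050*, also opposite to *Rras*, overlaps 35.3% of its exonic bases in GENCODE M39. *Gm72050* holds 43.6% of the 50-base windows of the canonical *Rras* transcript on its opposite strand and is not among the genes listed in the count data. Without a stated use of strand in counting, reads from overlapping genes cannot be told apart, and the values of *Rras* are uncertain to that degree. *Rit1* (chr3:88624131-88641162, plus strand) shares 5.72% of its exonic bases with *Syt11* on the opposite strand, which had a log2 fold change of -0.41 (adjusted p = 0.608, edgeR's quasi-likelihood test). *Mras* (chr9:99267471-99319617, minus strand) shares 6.02% with the noncoding *Gm53543*, which is also not among the genes listed in the count data. The values of *Mras* are uncertain to that degree.

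*Lztr1* itself was at 24.2, 24.2, and 22.2 CPM in WT and 23.9, 27.9, and 25.4 CPM in the mutant mice, with overlap and a log2 fold change of 0.13 (adjusted p = 0.854, edgeR's quasi-likelihood test). A missense allele is still transcribed, so the level of *Lztr1* does not check the labels. *Cul3*, the cullin scaffold of the ligase, was at 162, 153, and 153 CPM in WT and at 144, 148, and 109 CPM in mutant mice, lower in every mutant mouse, with a log2 fold change of -0.22 (adjusted p = 0.751, edgeR's quasi-likelihood test). Of the 11 genes listed around the LZTR1-CUL3 ligase, 0 passed an adjusted p of 0.05, 3 had positive and 8 negative log2 fold changes, and their median was -0.16. *Usp9x*, a deubiquitinase, had the smallest p of this list, with 164 ± 13.9 CPM in WT and 124 ± 16.0 CPM in mutant mice (SD, n = 3 each) and a log2 fold change of -0.40 (adjusted p = 0.532, edgeR's quasi-likelihood test). The summed CPM of the 11 genes was 636 to 688 in WT and 530 to 615 in mutant mice, without overlap, whereas that of the 9 genes other than *Cul3* and *Usp9x* was 319 to 359 and 308 to 345 and overlapped.

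Of 26 other RAS-family GTPase genes, 21 were tested and 0 passed an adjusted p of 0.05. Their log2 fold changes ranged from -0.25 to 1.16 with a median of 0.17, 12 being positive and 9 negative. *Rem1*, which encodes a GTPase that restrains voltage-gated calcium channels, was the only gene of this list with an unadjusted p under 0.05, at 2.06 ± 0.755 CPM in WT and 4.27 ± 1.31 CPM in mutant mice (SD, n = 3 each; log2 fold change 1.06; adjusted p = 0.407, edgeR's quasi-likelihood test). *Rit2*, *Rem2*, and *Eras* were at 0 counts in all 6 mice.

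A further list held the enzymes and carriers that lipidate and deliver these GTPases. All 17 genes of this list were tested, 0 passed an adjusted p of 0.05 and 0 an unadjusted p under 0.05, and the median log2 fold change was -0.02. Of the 17, 1 was higher and 2 were lower in every mutant mouse, compared with 8.3% and 7.23% of all genes tested. *Arl3*, a release factor for prenylated cargo, and *Rce1*, the protease that trims the lipidated end, had the smallest p, with log2 fold changes of 0.40 (adjusted p = 0.712) and 0.29 (adjusted p = 0.746, edgeR's quasi-likelihood test). Downstream, 0 of 20 genes of the RAF-MEK-ERK and SHOC2 list passed, with 10 positive and 10 negative log2 fold changes. *Rassf5*, an effector that binds RAS and RAP1, was at 2.12 ± 0.327 CPM in WT and 3.35 ± 0.268 CPM in mutant mice (SD, n = 3 each; log2 fold change 0.66; adjusted p = 0.515, edgeR's quasi-likelihood test). The summed CPM of these 20 genes was 1203 to 1407 in WT and 1068 to 1178 in mutant mice, without overlap. *Ppp1cb*, a catalytic subunit of PP1 named after its values were seen, was at 512 ± 143 CPM in WT and 381 ± 91.1 CPM in mutant mice (SD, n = 3 each), and without it the sums were 729 to 785 and 741 to 792 CPM and overlapped.

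By root-mean-square difference of centered log2 CPM over the 6 mice, the genes with the profile nearest to *Mras* were *Cdh13* (0.0251), *Smyd1* (0.0364), and *Me3* (0.0369), where the median over the genes tested was 0.336. Those nearest to *Rit1* were *Gtf2ird1* (0.0325), *Wdr43* (0.0444), and *Nop56* (0.0447), with a median of 0.293. The profiles themselves had root-mean-square deviations of 0.186 for *Mras* and 0.103 for *Rit1* around their own means.

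Summed markers of macrophages, lymphocytes, and adipocytes stood apart between the genotypes in the same mice as *Rras* and *Rras2*. The 6 macrophage markers were higher in every *Lztr1* R409C/+ mouse, with summed levels of 91.9 to 92.9 CPM in WT and 141 to 163 CPM in mutant mice, with log2 fold changes from 0.42 to 1.64 and a lowest adjusted p, that of *Tyrobp*, of 0.0667 by edgeR's quasi-likelihood test. The 4 lymphocyte markers summed to 0.285 to 0.808 CPM in WT and 1.26 to 1.57 CPM in mutant mice, although of single genes only *Cd79a* was higher in every mutant mouse and the other 3 overlapped. The 3 adipocyte markers, none of which passed the filter on low counts, summed to 0.105 to 0.249 CPM in WT and 0 to 0.0979 CPM in mutant mice. With 3 counts at 0.0317 to 0.0541 CPM, the adipocyte sums rest on few counts, and no difference can be read from them. Summed levels overlapped between the genotypes for 5 endothelial markers (502 to 662 CPM in WT and 421 to 710 CPM in mutant mice), for 5 smooth muscle and pericyte markers (634 to 745 and 572 to 721 CPM), for 5 fibroblast markers (671 to 895 and 664 to 876 CPM), and for 5 erythroid markers (579 to 1478 and 1042 to 2625 CPM). They also overlapped for 3 Schwann cell markers (4.69 to 6.45 and 3.40 to 5.81 CPM) and for 4 skeletal muscle markers (1051 to 1487 and 1318 to 1626 CPM). The skeletal muscle sum was almost entirely *Ckm*, with means of 1296 CPM in WT and 1474 CPM in mutant mice. *Myh4*, *Myh1*, and *Actn3* did not exceed 0.152 CPM in any mouse. The smooth muscle sum was mostly *Rgs5*, at 573 CPM in WT. *Myh11* and *Tagln*, named after their values were seen, were lower in every mutant mouse, with means of 12.0 and 7.34 CPM for *Myh11* (log2 fold change -0.71; adjusted p = 0.438) and 5.13 and 3.27 CPM for *Tagln* (log2 fold change -0.65; adjusted p = 0.470, edgeR's quasi-likelihood test). The other 3 of this list overlapped, with log2 fold changes of -0.13 for *Acta2*, -0.09 for *Rgs5*, and 0.20 for *Pdgfrb*. Of the fibroblast markers, *Tcf21* was higher in every mutant mouse (3.37 and 4.90 CPM; log2 fold change 0.54; adjusted p = 0.565, edgeR's quasi-likelihood test), and the other 4 overlapped. All 5 erythroid markers had positive log2 fold changes, from 0.90 to 1.08, and 3 of them had an unadjusted p under 0.05 by the same edgeR test. Summed levels of the 6 cardiomyocyte markers were 34010 to 38590 CPM in WT and 25500 to 37300 CPM in mutant mice, and overlapped. Of these markers, *Ryr2* was lower in every mutant mouse (1096 and 871 CPM; log2 fold change -0.33; adjusted p = 0.654, edgeR's quasi-likelihood test), and the others overlapped. The part of all these cell markers in the values of *Rras* and *Rras2* was not tested.

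Across 17 other scalings, filters, tests, corrections, and omissions of a mouse, 0 of the 8 genes passed an adjusted p of 0.05. *Rras* kept a positive log2 fold change in all 17, from 0.31 to 0.53, and *Rras2* a negative one, from -0.58 to -0.25. Their unadjusted p was under 0.05 in 13 of 17 for *Rras* and in 12 of 17 for *Rras2*, and the lowest adjusted p was 0.387 and 0.407, respectively. For *Rras*, library size scaling and the omission of WT replicate 2, mutant replicate 2, or mutant replicate 3 raised the unadjusted p above 0.05, and for *Rras2* library size scaling, a replicate block, and the omission of WT replicate 3, mutant replicate 2, or mutant replicate 3 did so. *Hras* stayed positive and *Rit1* negative throughout, from 0.11 to 0.33 and from -0.28 to -0.05. *Nras*, *Mras*, *Rap1a*, and *Rap1b* changed sign in 2, 4, 2, and 1 of the 17, so no direction can be given for them.

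**Figure D5:**
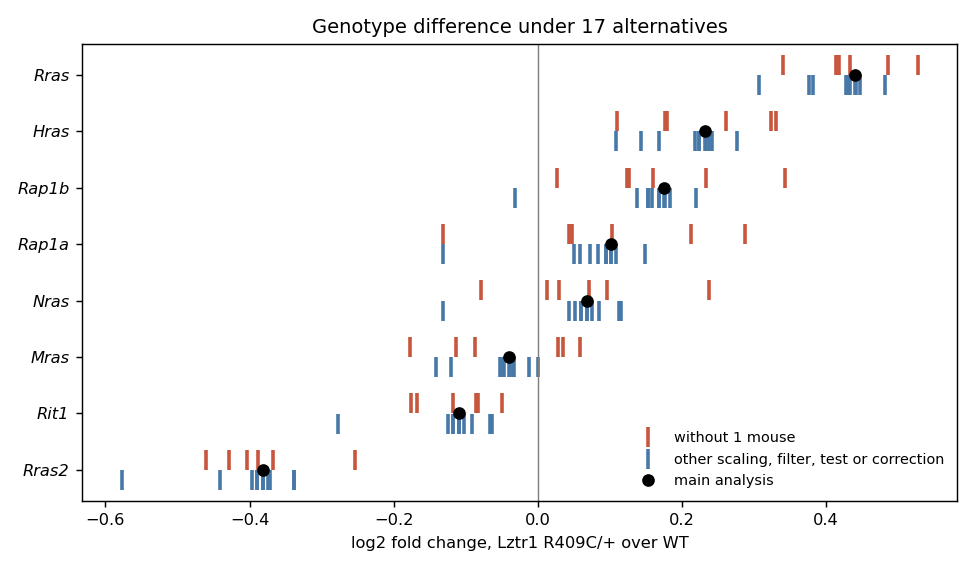
Log2 fold change of *Lztr1* R409C/+ over WT mice (x axis) for each GTPase gene in the main analysis (black point), in the 6 fits that each left out 1 mouse (red ticks), and under the other 11 alternatives (blue ticks). *Rras*, *Hras*, *Rit1*, and *Rras2* stay on their side of 0, and the other 4 genes cross it.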

How the data were processed

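mRNA-Seq of the LVs of 3 WT and 3 *Lztr1* R409C/+ mice was used. The sample labels give WT or mutant and heart, by which mice were grouped, and the R409C/+ allele and the LV come from the study's text. The authors trimmed reads with Trim Galore, aligned them to GRCm39 with HISAT2, excluded rRNA, and deposited StringTie counts per gene, which are whole numbers and not normalized. Tool versions, the annotation release, and strandedness are not given in the sources used here. Only gene names were taken from the authors' edgeR table, whose log2 fold changes and p-values were not used.

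Counts were analyzed in R 4.3.3 with edgeR 4.0.16 (filterByExpr, TMM, robust quasi-likelihood test with genotype as the only term, two-sided, Benjamini-Hochberg adjustment over 17212 genes). Fold changes are mutant over WT. Paralog ratios were compared with exact permutation tests in scipy 1.17.1. Exon lengths and positions come from GENCODE M39 on GRCm39, whose gene versions are later than those in the counts. The steps were tested on simulated data.

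The members and lists were chosen with earlier results of these data known. Named are the 8 genes, *Lztr1*, *Cul3*, of each of the 4 lists of related genes (not the marker lists) up to 3 genes per direction with the smallest unadjusted p under 0.05 (otherwise the 2 with the smallest p), the 3 nearest profiles of *Mras* and *Rit1*, and the genes that overlap or resemble a member. Single markers and *Ppp1cb* were named after their values were seen. Alternatives were DESeq2's size factors, library size, upper quartile, DESeq2 1.42.0, edgeR's exact test, other filters and thresholds, removal of mitochondrially encoded genes, a replicate block, other lengths, and omission of each mouse. Length and GC corrections, the canonical length, and list sums without single genes were added after the data were seen.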

Additional observations from a re-analysis of the deposited data

How the results depend on the processing

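With 3 mice of each genotype, the exact permutation tests cannot give a p below 0.1. The counting error of a member's count in a mouse was between 1.15% and 7.56% of it (Poisson, covering counting error only), beside biological coefficients of variation of 14.8% to 22.5%. For *Rras2* in mutant mice, whose CPM varied by 2.09% (SD over mean), the counting error of 1.83% to 2.10% was about as large as the spread between mice. Of 136 log2 fold changes of members under the 17 alternatives, 127 kept their direction. The 9 that did not were *Nras* with library size only (-0.13) and without mutant replicate 1 (-0.079), *Rap1a* with library size only (-0.13) and without mutant replicate 1 (-0.13), *Rap1b* with library size only (-0.032), and *Mras* with upper quartile scaling (0.000405) and without WT replicate 1 (0.03), WT replicate 2 (0.03), or mutant replicate 1 (0.0587). Over the omissions of 1 mouse, *Nras* ranged from -0.079 to 0.24, *Mras* from -0.18 to 0.0587, *Rap1a* from -0.13 to 0.29, and *Rap1b* from 0.0261 to 0.343. The log2 ratio of *Nras* over *Hras* changed sign without mutant replicate 3 (0.0538, within a range of -0.358 to 0.0538 over the omissions), and that of *Mras* over *Rit1* without WT replicate 3 (-0.0738), mutant replicate 2 (-0.02), or mutant replicate 3 (-0.00428). The members whose share did not overlap between the genotypes numbered 1, and from 1 to 4 when a mouse was left out (2 without WT replicate 1 or mutant replicate 1, and 4 without mutant replicate 3).

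Among all genes at a false discovery rate of 0.05, 6 were higher and 1 lower by edgeR's quasi-likelihood test, 15 and 6 with library size only, 143 and 15 by DESeq2's Wald test, and 127 and 13 by edgeR's exact test. Without a filter 19 were higher, with at least 10 counts in every mouse 0 were lower, and with the GC correction 2 were lower. Leaving out a mouse gave 1 to 3 higher and 1 to 2 lower genes. At a false discovery rate of 0.1, 15 were higher, and at an unadjusted p under 0.05, 993 were higher and 493 lower. The causes were not tested. The replicate block left 0 higher genes and called 0 members. Deviations of mice with the same number had correlations of -0.00133, 0.0215, and -0.0573 across genes. Those of mice with different numbers ran from -0.0499 to 0.0476. No shared effect of the number was seen, but with 3 mice of each genotype these values cannot settle whether the numbers pair the mice. Under the block *Rras* and *Rras2* had log2 fold changes of 0.43 and -0.37 (unadjusted p = 0.0453 and 0.0593, edgeR's quasi-likelihood test).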
